A study of Mus musculus with 15 samples.

Results

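Chromatin contacts of the α-globin promoters (Hba), the adult β-globin promoters (Hbb) and the Slc25a37 promoter in mouse embryonic stem (ES) cells were set against those in erythroid cells that each lacked a single element of the α-globin enhancer cluster. The members were chosen by their columns in the tables that hold both kinds of cell. They are 6 of the 15 libraries of the series: 1 ES library and 5 erythroid libraries. The ES cells were E14 cells of strain 129/Ola with no deletion named in their labels. The erythroid cells were F1 C57Bl6 / CBA fetal liver cultures, and they lacked regulatory element R1 (R1_KO), R2 (R2_KO), R3 (R3_KO), R4 (R4_KO) or Rm (Rm_KO). Per the labels' protocols, E12.5 fetal livers were dissociated and expanded for 5 to 7 days with erythropoietin, stem cell factor and dexamethasone. Cells carrying Ter119 were then removed, and differentiation ran for 18 hours. The labels repeat this fetal liver text for the ES sample and give no ES culture conditions. Its list of genes reads Slc25A38 where the erythroid samples have Slc25A37.

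The α- and β-globin genes encode the chains of adult haemoglobin, and Slc25a37 encodes mitoferrin, which carries iron into mitochondria for haem synthesis. The globin genes are silent in ES cells and are among the most active genes of maturing erythroid cells. In erythroid cells the α-globin promoters fold onto upstream elements, of which R1, R2 and R3 lie in introns of the neighbouring gene Nprl3, and the β-globin promoters fold onto the locus control region (LCR) upstream of the embryonic genes. NG Capture-C measures such folding: crosslinked chromatin is cut with DpnII, neighbouring fragments are ligated, and products that contain a chosen promoter are enriched with oligonucleotides and sequenced. Contact reads carry no expression values, so the identity of the cells was not checked against marker genes.

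The tables leave gaps of at least 1500 bp at the captured promoters, and distances were measured from these. In mm9 the Hba gaps lie at chr11:32182317-32184781 and chr11:32194990-32197598, the Hbb gaps at chr7:110961283-110963273 and chr7:110975292-110977138, and the Slc25a37 gap at chr14:69902161-69904393. The promoters of the globin genes are shown because they are the viewpoints of the Hba and Hbb values, and because the α-globin pair is nearly identical. They come from RefSeq on GRCm38.p6, another build than that of the tables, and run from 250 bases before to 50 after the gene's start. Capitals mark GATC, the DpnII site, which reads the same on both strands.

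Hba-a1 (chr11:32283422-32283721, plus strand): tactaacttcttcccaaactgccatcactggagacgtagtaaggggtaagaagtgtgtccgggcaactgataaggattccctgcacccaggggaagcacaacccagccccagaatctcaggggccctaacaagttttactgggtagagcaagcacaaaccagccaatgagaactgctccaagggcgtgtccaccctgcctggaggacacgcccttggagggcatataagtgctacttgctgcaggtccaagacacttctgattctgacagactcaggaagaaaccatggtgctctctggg
Hba-a2 (chr11:32296242-32296541, plus strand): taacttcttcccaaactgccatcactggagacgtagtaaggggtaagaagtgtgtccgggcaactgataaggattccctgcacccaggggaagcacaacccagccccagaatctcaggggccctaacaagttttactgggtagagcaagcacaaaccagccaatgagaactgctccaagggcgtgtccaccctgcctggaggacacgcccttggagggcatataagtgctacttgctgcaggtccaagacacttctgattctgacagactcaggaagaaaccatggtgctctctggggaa
Hbb-bs (chr7:103827879-103828178, minus strand): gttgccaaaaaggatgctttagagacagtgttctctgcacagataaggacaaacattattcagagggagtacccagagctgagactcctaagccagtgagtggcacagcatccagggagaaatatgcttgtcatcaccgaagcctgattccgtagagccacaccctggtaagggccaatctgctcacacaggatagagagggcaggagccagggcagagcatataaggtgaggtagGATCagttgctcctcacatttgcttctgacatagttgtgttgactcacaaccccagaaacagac
Hbb-bt (chr7:103813874-103814173, minus strand): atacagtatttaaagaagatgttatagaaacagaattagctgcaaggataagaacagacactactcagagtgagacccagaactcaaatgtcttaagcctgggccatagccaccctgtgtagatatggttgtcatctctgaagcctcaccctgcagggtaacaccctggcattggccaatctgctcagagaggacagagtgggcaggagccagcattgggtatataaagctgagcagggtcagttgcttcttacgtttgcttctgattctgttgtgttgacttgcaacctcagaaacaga

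The Hba-a1 and Hba-a2 stretches share 1 unbroken run of 297 bases. The deposited counts are labelled as combined for Hba and for Hbb, so contacts are given for each pair of promoters. Hbb-bs and Hbb-bt, the adult β-globin genes of the reference annotation, matched at 226 of 311 aligned positions (72.7%). Only the Hbb-bs stretch held a GATC, which 48.0% of the 32851 promoters of that length in the table hold. The sources used here do not say how reads from the α-globin copies were assigned.

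The Hba libraries held 704054 reads in ES cells and 386214 to 713934 in erythroid cells, the Hbb libraries 286120 in ES cells and 243961 to 470262 in erythroid cells, and the Slc25a37 libraries 197967 in ES cells and 109588 to 221235 in erythroid cells. R2_KO was the shallowest library at each viewpoint. Levels are reads per 100000 reads on the viewpoint chromosome that lie more than 2 kb from a gap, and at Hba each erythroid library leaves out its own deleted element. Each genotype had 1 library, so no value has a replicate check. The SD over erythroid libraries mixes genotype with library, and no p-value is given, since 1 against 5 libraries cannot go below an exact permutation p of 0.167. Cell type, strain, culture and the presence of a deletion all differ between the ES and the erythroid libraries and cannot be told apart. Differences between single libraries cannot be told apart from these either.

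The first comparison asked which elements the α-globin promoters met in each kind of cell. All 5 elements of the enhancer cluster were contacted less in ES cells than in any erythroid library that keeps the element. For scale, among 201 tested 5 kb bins within 500 kb of Hba, ES cells were below every erythroid library in 31. They were above every one in 161. ES levels were 0.189 of the erythroid mean at R1 and 0.422 at R4, the element nearest to the genes. An element is represented by those fragments around it whose level, in the library lacking it, was under 50% of the average over the remaining erythroid libraries. The low value of each block in its own library is therefore fixed by that rule. The rule used no ES read, but it did use the erythroid libraries that keep the element, whose mean the ES level is divided by. The element ratios are thus not independent of how the fragments were picked.

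R1 (chr11:32144385-32146566) had 214 reads per 100000 in ES cells, against 1248 in R2_KO, 1102 in R3_KO, 1073 in R4_KO and 1103 in Rm_KO. The ES level was 0.189 of the mean of these 4 libraries (1132 ± 78.6, SD). The erythroid values lay close together, and the ES value stood far below the lowest of them.

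R2 (chr11:32150268-32151881) had 446 reads per 100000 in ES cells, against 1718 in R1_KO, 2068 in R3_KO, 2080 in R4_KO and 2287 in Rm_KO. The ratio to their mean (2038 ± 236, SD, n = 4) was 0.219. R1_KO was the lowest of the erythroid libraries here, and the ES level was still well under it.

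R3 (chr11:32155867-32157248) had 485 reads per 100000 in ES cells, against 1042 in R1_KO, 1348 in R2_KO, 1362 in R4_KO and 1566 in Rm_KO. The ES level was 0.365 of their mean (1330 ± 216, SD, n = 4). Rm (chr11:32164968-32166169) had 424 reads per 100000 in ES cells, against 1040 in R1_KO, 1366 in R2_KO, 1267 in R3_KO and 1206 in R4_KO, a ratio of 0.348 to the mean (1220 ± 137, SD, n = 4). At both elements R1_KO was the nearest to ES, and neither group overlapped the other.

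R4 (chr11:32168682-32169921) had 866 reads per 100000 in ES cells, against 1752 in R1_KO, 2396 in R2_KO, 2050 in R3_KO and 2011 in Rm_KO. It was the most contacted element in ES cells, with a ratio of 0.422 to the erythroid mean (2052 ± 265, SD, n = 4). That erythroid mean was also the highest of the elements, though close to the 2038 of R2. In the library that lacks it, an element kept a level of 455 at R1, 398 at R2, 432 at R3, 319 at Rm and 564.4 at R4. The ES level was below that of R1_KO at R1, and above that of the library lacking the element at the other 4 elements. The rule chose each block to be low in the library lacking it, so this is a description only.

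**Figure D1:**
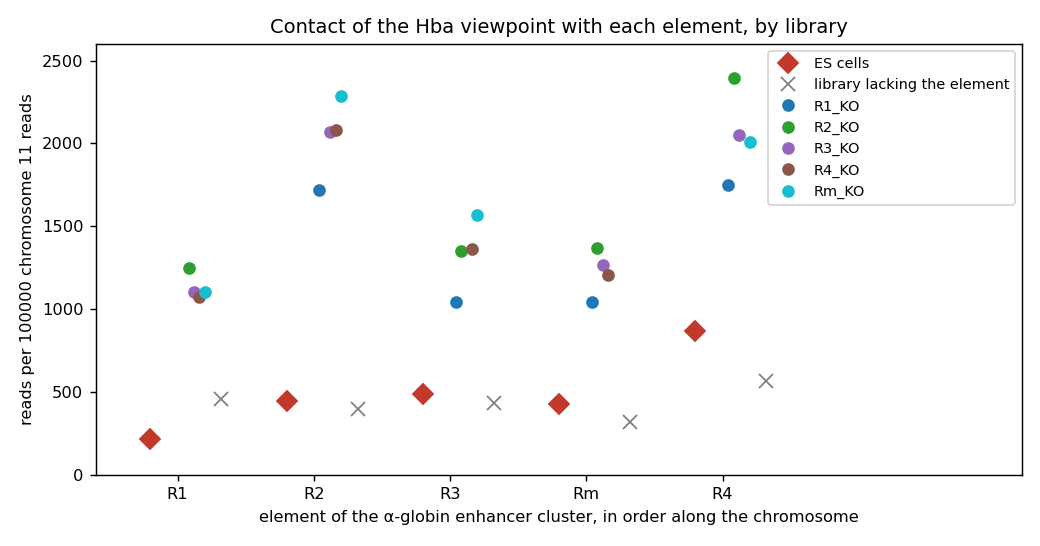
Reads per 100000 chromosome 11 reads of the Hba viewpoint at each element (vertical axis, linear) in ES cells (red diamond) and in each erythroid library that keeps the element (circles); grey crosses show the library that lacks it. ES cells had 214 at R1 and 866 at R4, below every circle at all 5 elements.

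Between the elements the pattern was the same. The rest of the enhancer cluster (chr11:32139865-32170701) had 6173 reads per 100000 in ES cells, against 15108 in R1_KO, 17191 in R2_KO, 16759 in R3_KO, 17139 in R4_KO and 18281 in Rm_KO. The ES level was 0.365 of the erythroid mean (16895 ± 1149, SD, n = 5). The spread of the erythroid libraries was a small part of that gap, and the direction was the same when scaled to reads within 500 kb or to all reads of the genome.

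The α-globin genes themselves (chr11:32170702-32204979), which include the fragments next to the viewpoints, had 18278 reads per 100000 in ES cells, against 23742 ± 1251 in erythroid cells (SD, n = 5), with R4_KO the lowest at 21705. The ratio of 0.770 turned to above 1 (log2 ratio of 0.12) when levels were scaled to all reads of the genome. It also hung on the zone left out around the gaps: the log2 ratio was −0.38 with 2 kb left out, −0.55 with 5 kb and −1.17 with 10 kb, while that of the enhancer cluster was −1.45, −1.50 and −1.53. On the far side of the enhancers, the upstream genes (chr11:32080071-32135979), a window laid over Mpg and Rhbdf1, had 7972 in ES cells. The erythroid values there ran from 7017 in R3_KO to 8214 in R2_KO, so ES cells lay within them on this scale.

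Outside this core, ES cells had more contacts. The far upstream flank (chr11:31949955-32079920) had 5873 reads per 100000 in ES cells, against 1472 ± 112 in erythroid cells (SD, n = 5), a ratio of 3.99. The downstream flank (chr11:32204980-32320310) had 13926, against 6175 ± 482 in erythroid cells, a ratio of 2.26. The highest erythroid values were those of R1_KO at both flanks, 1613 and 6911, and both were far below ES.

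In 5 kb bins up to 500 kb on each side, a bin was called where the ES level was at least 2-fold from the erythroid mean and outside the erythroid range. At Hba, 141 of 201 bins with at least 90 reads over the 6 libraries were called higher in ES cells (70.1%) and 13 lower (6.47%). All tested bins had a median ES over erythroid ratio of 3.74, so a higher bin was the common state of these profiles. ES cells lay above every erythroid library in 161 of these bins and below every one in 31. A value outside the erythroid range was thus common too. DESeq2 called 15 bins higher and 62 lower. It differed from this count in its rule (an adjusted p under 0.05), in leaving all 5 elements out of every library, and in its size factors, which lower the ES values by a log2 of 1.76. A change of scale moves the ratios by similar but not identical factors, since each library has its own scale, so the order of close bins can change. Scaled to all reads of the genome, the log2 ratio went from −2.19 to −1.63 at R2 and from −1.24 to −0.78 at R4.

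On the enhancer side, 7 of the 10 bins within 50 kb were lower in ES cells and none was higher, with a median ratio of 0.434. From 50 to 100 kb no bin was called and the median ratio was 0.988. From 100 to 250 kb all 30 bins were higher, with a median ratio of 5.07. On the downstream side the turn came sooner: 4 of 10 bins within 50 kb and all 10 bins from 50 to 100 kb were higher, and none of the 100 bins was lower.

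The lowest bin (chr11:32142086-32146902), which holds R1, had 583 reads per 100000 in ES cells, against 2702 in R2_KO, 2370 in R3_KO, 2387 in R4_KO and 2462 in Rm_KO. Its ratio was 0.235. The bin beside it (chr11:32146903-32152404), which holds R2, had a ratio of 0.240, and the next (chr11:32152405-32157269), which holds R3, one of 0.333. The bins with the largest ratios were far out and thinly read: chr11:32672763-32677677 had 54.0 in ES cells and 1.27 to 7.26 in erythroid cells, a ratio of 10.3. At chr11:31972583-31977780 and chr11:31957817-31962258 the ratios were 8.75 and 8.70.

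**Figure D2:**
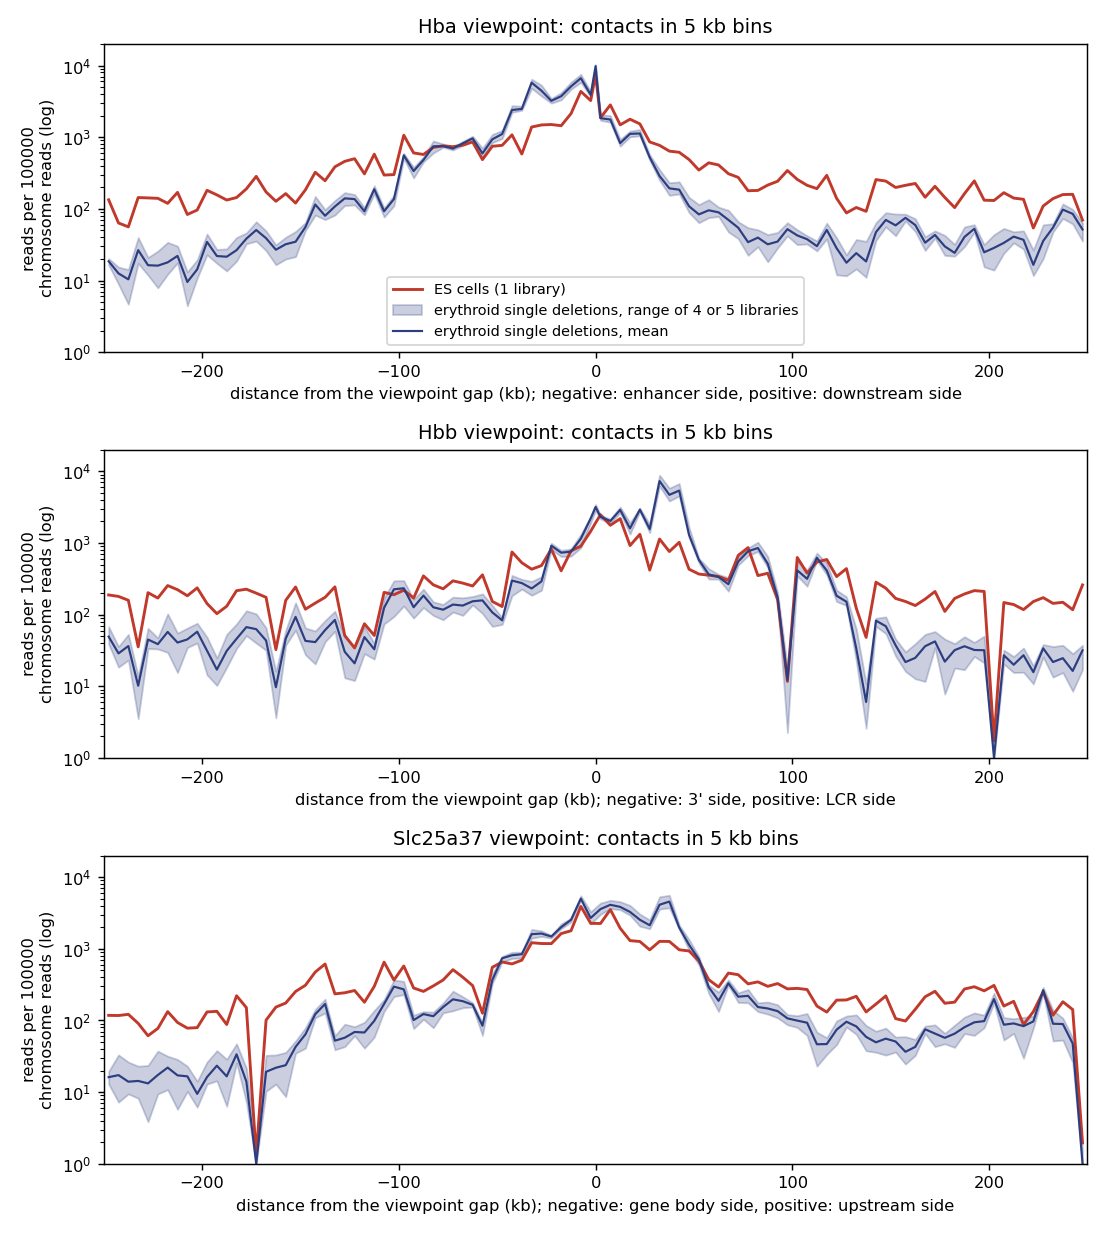
Contacts in 5 kb bins by distance from the viewpoint gaps (horizontal axis, kb) in reads per 100000 chromosome reads (vertical axis, log; values under 1 are drawn at 1), with ES cells as a red line and the erythroid mean and range in blue. Near the viewpoint the ES line lies under the blue band on the enhancer, LCR and upstream sides, and from about 100 kb outward it lies above the band in most bins.

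The second lower stretch at Hba lay far from the enhancers. Between 435 and 475 kb on the enhancer side (chr11:31707773-31747150), 6 of 8 bins were called lower in ES cells, with ratios of 0.387 to 0.484. Summed over these 6 bins, ES cells had 382 reads per 100000 (1999 reads), against 833 in R1_KO, 1009 in R2_KO, 959 in R3_KO, 873 in R4_KO and 838 in Rm_KO. Every erythroid library was thus above ES cells over this distant stretch, while 22 of the 50 bins at 250 to 500 kb on this side were called higher in ES cells. The 6 bins were picked by their values, so their sum is a description only. None of the 6 was called lower when levels were scaled to all reads of the genome, with ratios of 0.550 to 0.682, or by a 3-fold rule.

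At the Hbb viewpoint the window with the lowest ratio was the LCR. It (chr7:110994810-111023653) had 5276 reads per 100000 in ES cells, against 21010 in R1_KO, 27905 in R2_KO, 23178 in R3_KO, 20849 in R4_KO and 23209 in Rm_KO. The ES level was 0.227 of the erythroid mean (23230 ± 2848, SD, n = 5). R2_KO stood highest among the erythroid libraries, R4_KO lowest, and the ES level far below all of them.

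The approximate window named for the embryonic genes (chr7:110980132-110994809) had 6445 reads per 100000 in ES cells. Erythroid cells had 7536 ± 386 (SD, n = 5), a ratio of 0.855. Gene positions were not checked in mm9. This window may not hold both Hbb-y and Hbb-bh1, and the LCR window may hold one of them. The adult genes (chr7:110944626-110980131) had 5475 in ES cells and 7905 ± 562 in erythroid cells, a ratio of 0.693. ES cells were below all 5 erythroid libraries at both, but scaled to all reads of the genome the log2 ratios turned to 0.42 and 0.12. With 10 kb left out around the gaps they were −0.57 for the embryonic and −0.04 for the adult genes, against −0.23 and −0.53 with 2 kb. The LCR was the only window of this locus that was lower in ES cells on every scale used.

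The window over the 3′ boundary (chr7:110919959-110944625) had 2831 reads per 100000 in ES cells, against 2484 ± 155 in erythroid cells, just above the highest library (R4_KO, 2713). The 3′ flank beyond it (chr7:110859982-110919958) had 3327 in ES cells and 1858 ± 336 in erythroid cells, a ratio of 1.79. The 5′ flank (chr7:111023654-111120203) had 7439 in ES cells, within the erythroid range of 6678 in R3_KO to 8118 in R1_KO.

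Of 193 bins at Hbb, 131 were called higher in ES cells (67.9%) and 11 lower (5.7%), against 3 higher and 60 lower by the adjusted p of DESeq2, whose size factors lower the ES values by a log2 of 2.04. ES cells lay above every erythroid library in 155 of the 193 bins and below every one in 20. Within 50 kb on the LCR side 6 of 10 bins were lower, and none within 50 kb on the 3′ side. The bin chr7:111007026-111012241 had 1137 reads per 100000 in ES cells, against 7149 in R1_KO, 8843 in R2_KO, 7019 in R3_KO, 6223 in R4_KO and 7417 in Rm_KO, a ratio of 0.155. No other called bin within 100 kb of any viewpoint had a smaller ratio.

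Another 4 lower bins lay 450 to 490 kb out on the LCR side, where ES cells had 35 reads in all, and 2 of them had the smallest ratios of all (0.0829 and 0.0873). Summed, they had 15.2 reads per 100000 in ES cells, against 29.7 in R1_KO and 133 in R2_KO. With erythroid values that far apart and so few reads, these ratios are loosely determined. The bins with the largest ratios were chr7:110481232-110486206 (12.1), chr7:111292313-111296807 (11.1) and chr7:111282228-111286898 (10.9).

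Slc25a37 showed a smaller contrast near the gene. The upstream region (chr14:69906474-69959889) had 16461 reads per 100000 in ES cells, against 29228 in R1_KO, 38138 in R2_KO, 32138 in R3_KO, 30457 in R4_KO and 30477 in Rm_KO. The ES level was 0.513 of the erythroid mean (32088 ± 3537, SD, n = 5). The gap to R1_KO, the lowest erythroid library, was larger than the whole erythroid range.

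The gene body (chr14:69859913-69900081) had 14208 reads per 100000 in ES cells, against 18244 ± 970 in erythroid cells (SD, n = 5), a ratio of 0.779 that turned to a log2 ratio of 0.07 when scaled to all reads of the genome. Beyond the gene, the far side (chr14:69759957-69859912) had 7749 in ES cells and 3958 ± 254 in erythroid cells, a ratio of 1.96. The far upstream region (chr14:69959890-70060563) had 5135 in ES cells and 2496 ± 136 in erythroid cells, a ratio of 2.06. ES cells were outside the erythroid range in all 4 windows, lower in the inner pair and higher in the outer pair. Being outside that range was the common state here. Of 183 tested 5 kb bins, ES cells were above every erythroid library in 157 and below every one in 19.

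Of 183 bins at Slc25a37, 142 were called higher in ES cells (77.6%) and 6 lower (3.28%), against 1 higher and 35 lower by the adjusted p of DESeq2, whose size factors lower the ES values by a log2 of 1.64. All 6 lower bins lay between 15 and 45 kb on the upstream side, and none on the gene body side. The bin chr14:69939527-69944489 had 1268 reads per 100000 in ES cells, against 4196 in R1_KO, 5602 in R2_KO, 3741 in R3_KO, 4608 in R4_KO and 4704 in Rm_KO, a ratio of 0.277. Its neighbour chr14:69934338-69939526 had a ratio of 0.308, and chr14:69919953-69924291 one of 0.398. The largest ratios, 16.6, 14.02 and 12.9, came from bins 345 to 480 kb out on the gene body side with 97 to 165 reads over the 6 libraries.

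Fragments near the viewpoints that were well covered in erythroid cells also had reads in ES cells. These fragments were chosen by their erythroid reads alone, so fragments high only in ES cells could not enter. With that many erythroid reads required, 0 ES reads was unlikely from the start, and the counts are a description only. Among fragments within 100 kb that had at least 30 reads in each erythroid library, none of 314 at Hba, 1 of 236 at Hbb and 1 of 218 at Slc25a37 had an ES level under 10% of the erythroid mean, and none had 0 ES reads. The Hbb fragment, chr7:111016948-111017384 in the LCR, had 41.2 reads per 100000 in ES cells (95 reads) and 264 to 647 in erythroid cells. The Slc25a37 fragment, chr14:69907220-69907550, had 36.5 in ES cells (56 reads) and 84.1 to 703 in erythroid cells.

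The second question was how far each contact domain reached. Nearly the same share of chromosome 11 reads fell within 500 kb of the Hba viewpoint in both kinds of cell: 68.8% in ES cells, within the erythroid range of 66.9% in R4_KO to 72.4% in R2_KO. At Hbb the share was 50.1% in ES cells and 51.6% to 59.7% in erythroid cells, and at Slc25a37 it was 56.6% in ES cells and 57.6% to 67.9% in erythroid cells. The ES value was the lowest at Hbb and Slc25a37, though close to the lowest erythroid library.

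Within those 500 kb the reads lay further out in ES cells. The distance that held 50% of them was 36.0 kb in ES cells at Hba, against 20.2 kb in R1_KO, 18.5 in R2_KO, 19.7 in R3_KO, 24.3 in R4_KO and 22.2 in Rm_KO. At Hbb it was 78.0 kb in ES cells and 32.3 to 33.0 kb in erythroid cells, and at Slc25a37 42.3 kb in ES cells and 22.7 to 24.7 kb in erythroid cells. The erythroid libraries of a viewpoint were nearly alike, and the ES distance exceeded every one of them.

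The distance that held 80% of these reads separated the groups further. It was 165 kb in ES cells and 49.6 to 61.2 kb in erythroid cells at Hba, 271 kb in ES cells and 51.4 to 76.3 kb in erythroid cells at Hbb, and 172 kb in ES cells and 41.3 to 46.6 kb in erythroid cells at Slc25a37. As ratios to the erythroid mean these are 2.99, 4.31 and 3.88.

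The erythroid domains were also lopsided, and the ES domains less so. The enhancer side of Hba held 52.0% of reads within 500 kb in ES cells, against 67.3% in R1_KO, 71.0% in R2_KO, 70.4% in R3_KO, 70.4% in R4_KO and 70.1% in Rm_KO. The downstream side held 37.3% in ES cells and 14.9% to 18.5% in erythroid cells. R1_KO was the least lopsided of the erythroid libraries, and far from the ES value.

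At Hbb the LCR side held 55.3% in ES cells and 71.9% to 77.5% in erythroid cells, while the 3′ side held 40.9% in ES cells and 16.8% to 21.9% in erythroid cells. At Slc25a37 the upstream side held 50.7% in ES cells and 60.7% to 63.7% in erythroid cells. The 3 ES profiles were thus nearer to an even split than any erythroid profile of the same viewpoint.

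A domain edge was also read as the unbroken run of 5 kb bins above 5 times the library's own mean level at 100 to 500 kb. On the enhancer side of Hba the run was 35 kb long in ES cells and 100 kb in all 5 erythroid libraries. On the LCR side of Hbb it was 25 kb in ES cells, 95 kb in R2_KO and 90 kb in the other erythroid libraries. On the 3′ side of Hbb it was 15 kb in ES cells and 30 to 45 kb in erythroid cells. The enhancer-bearing sides of both globin loci thus carried the longest erythroid runs.

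At that multiple, the run was 40 kb in ES cells and 35 kb in erythroid cells downstream of Hba. It was 50 kb in ES cells and 55 kb in erythroid cells on the gene body side of Slc25a37. Upstream of Slc25a37 the run was 55 kb in ES cells and 60 to 85 kb in erythroid cells. These lengths depend on each library's own far level, which was higher in ES cells, and on the multiple: at 3 times that level the enhancer side of Hba differed by only 3 kb on average. Upstream of Slc25a37 the ES run was shorter than the erythroid mean by 18 kb at 5 times the far level, 38 kb at 3 times and 30 kb at 10 times. On its gene body side the run was shorter by 5 kb at 5 times and by 19 kb at 10 times.

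The third comparison was the fall of contacts with distance. ES contacts fell more slowly at all 3 viewpoints. The slope of log10 reads per kb on log10 distance, over 8 windows from 10 kb to 1 Mb, was −1.04 in ES cells at Hba, against −1.48 in R1_KO, −1.54 in R2_KO, −1.54 in R3_KO, −1.50 in R4_KO and −1.56 in Rm_KO. At Hbb it was −0.71 in ES cells and −1.53 to −1.40 in erythroid cells, and at Slc25a37 −1.02 in ES cells and −1.63 to −1.50 in erythroid cells.

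The ES slope at Hbb was the shallowest of the 18 slopes, and no erythroid slope overlapped an ES slope. The curves crossed between neighbouring windows at each viewpoint. At 31.6 to 56.2 kb the ES density was 0.632, 0.309 and 0.541 of the erythroid mean at Hba, Hbb and Slc25a37, and at 56.2 to 100 kb it was 1.42, 1.13 and 1.98 of it.

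**Figure D3:**
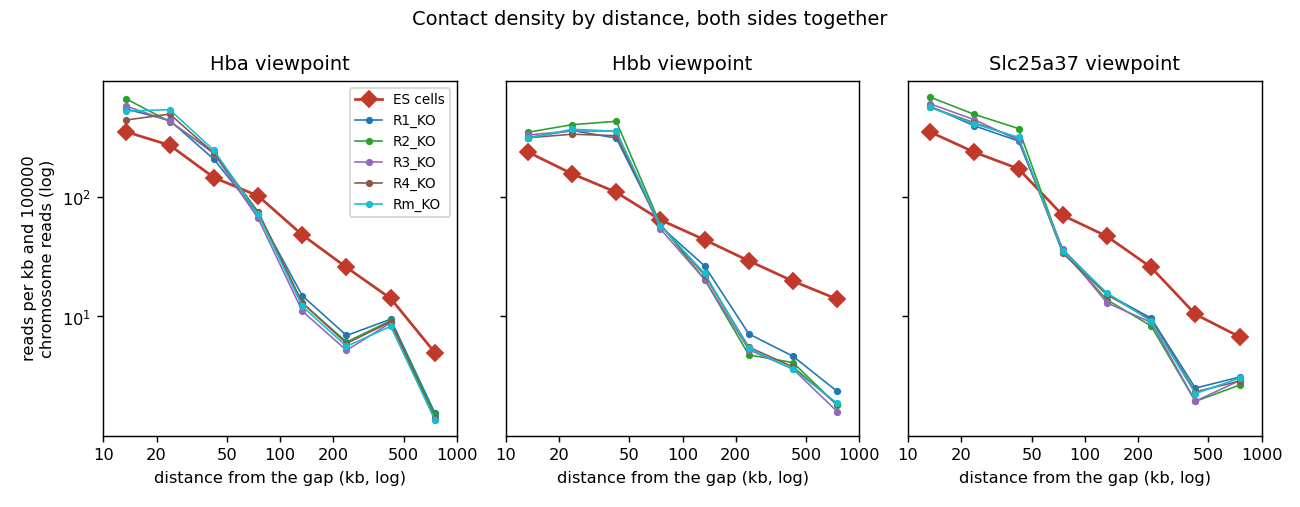
Reads per kb and 100000 chromosome reads (vertical axis, log) against distance from the viewpoint gap (horizontal axis, log, kb), both sides together, with ES cells in red and the 5 erythroid libraries in other colours. The ES line starts lower, crosses the erythroid lines before 100 kb and stays above them to 1 Mb at each viewpoint.

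Erythroid density did not fall at every step. At Hba the erythroid mean density was 5.97 reads per kb at 178 to 316 kb but 8.98 at 316 to 562 kb, the window that holds the distant lower bins described above. ES cells had 25.7 and 14.1 reads per kb in the same windows. In the outer window the erythroid values ran from 8.27 in Rm_KO to 9.49 in R1_KO, and the ES ratio to their mean was 1.58. In the windows on both sides of it the ratio was 4.30 and 3.45. At Slc25a37 the erythroid mean was 2.22 reads per kb at 316 to 562 kb and 2.93 at 562 kb to 1 Mb, where ES cells had 10.4 and 6.77.

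By distance class, ES cells had fewer reads close in, more in the middle range and, at the globin loci, fewer at the far end. From 10 to 50 kb ES cells had 18.6% of Hba chromosome reads, against 28.7% in R1_KO, 31.4% in R2_KO, 30.2% in R3_KO, 30.0% in R4_KO and 33.0% in Rm_KO. The same class held 12.54% in ES cells and 28.9% to 36.3% in erythroid cells at Hbb, and 18.9% in ES cells and 32.6% to 41.0% in erythroid cells at Slc25a37. The groups did not overlap at any viewpoint.

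From 100 to 500 kb the order was the reverse. ES cells had 20.3% of Hba chromosome reads, against 8.24% in R1_KO, 7.56% in R2_KO, 6.86% in R3_KO, 7.38% in R4_KO and 6.90% in Rm_KO. At Hbb ES cells had 22.7% and erythroid cells 5.97% to 7.81%. At Slc25a37 ES cells had 18.3% and erythroid cells 5.16% to 5.95%. The ratio to the erythroid mean was 2.74 at Hba, 3.47 at Hbb and 3.27 at Slc25a37.

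The excess in ES cells went on to 5 Mb. From 500 kb to 5 Mb ES cells had 12.9% at Hba, 30.0% at Hbb and 20.6% at Slc25a37, against erythroid means of 6.13 ± 0.35%, 12.2 ± 0.67% and 12.1 ± 0.92% (SD, n = 5 each). This was the largest class of the ES profile at Hbb.

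Beyond 5 Mb the order turned again. ES cells had 18.4% at Hba, against 21.1% in R2_KO to 26.8% in R4_KO, and 19.9% at Hbb, against 28.4% in R2_KO to 36.4% in R4_KO. At Slc25a37 ES cells had 22.8%, which was under 4 erythroid libraries (28.0% to 29.7%) and above R2_KO (21.6%), so ES cells lay within the erythroid range there.

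**Figure D4:**
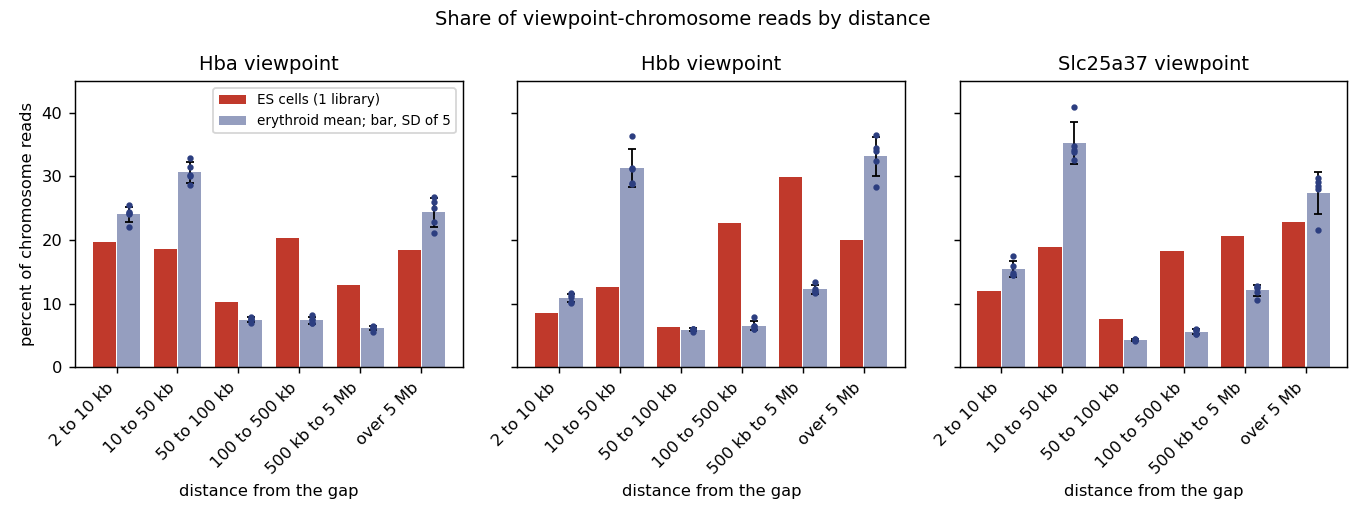
Percent of viewpoint-chromosome reads (vertical axis, linear from 0) in 6 classes of distance from the gap, with ES cells in red (1 library), the erythroid mean in blue with SD, and the 5 erythroid libraries as points. The ES bar is the lower one at 10 to 50 kb (18.6% against a mean of 30.7% at Hba) and the higher one at 100 to 500 kb (20.3% against 7.39% at Hba).

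A single distance for all chromosome reads mixes both ends. The distance that held 50% of chromosome reads was 113 kb in ES cells and 34.7 to 42.9 kb in erythroid cells at Hba, and 253 kb in ES cells and 37.5 to 74.4 kb in erythroid cells at Slc25a37. At Hbb it was 497 kb in ES cells, against 237 kb in R1_KO, 72.4 in R2_KO, 123 in R3_KO, 301 in R4_KO and 111 in Rm_KO. The erythroid values at Hbb spread widely, and with 10 kb left out around the gaps in place of 2 the direction turned there (log2 ratio of −0.30).

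The distance that held 80% went the other way. It was 3021 kb in ES cells and 8522 to 18876 kb in erythroid cells at Hba, and 4929 kb in ES cells and 14410 to 22169 kb in erythroid cells at Hbb. At Slc25a37 it was 6821 kb in ES cells and 6102 to 11390 kb in erythroid cells, with R2_KO below ES. At both globin viewpoints ES reads were thus concentrated in the middle range, with smaller shares at both ends.

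The far contacts were also placed differently along the chromosome. Over 1 Mb bins beyond 5 Mb, Spearman's rho between ES and each erythroid library was 0.81 to 0.87 at Hba (110 bins), 0.54 to 0.61 at Hbb (129 bins) and 0.87 to 0.90 at Slc25a37 (108 bins). Between pairs of erythroid libraries it was 0.96 to 0.98, 0.97 to 0.99 and 0.94 to 0.96. These are correlations across bins, which share the density of restriction sites and of mappable sequence, and they describe the libraries only.

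The last comparison was the share of reads on other chromosomes, counted among all reads more than 2 kb from the gaps. It was lower in ES cells at every viewpoint. At Hba it was 18.4% in ES cells, against 39.8% in R1_KO, 33.9% in R2_KO, 45.7% in R3_KO, 48.3% in R4_KO and 44.5% in Rm_KO. The ES library's Wilson 95% interval was 18.3% to 18.5%, which covers counting error only.

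At Hbb the share was 16.8% in ES cells, against 46.2% in R1_KO, 39.1% in R2_KO, 49.4% in R3_KO, 51.4% in R4_KO and 49.2% in Rm_KO. At Slc25a37 it was 19.1% in ES cells, against 39.2% in R1_KO, 32.8% in R2_KO, 44.7% in R3_KO, 42.4% in R4_KO and 41.2% in Rm_KO. R2_KO was the lowest erythroid library each time and R1_KO the next, and the gap between ES cells and R2_KO was larger than the whole erythroid range at each viewpoint.

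As differences from the erythroid mean, the shares were 24.0 percentage points lower at Hba (42.4 ± 5.71%), 30.2 at Hbb (47.0 ± 4.82%) and 20.9 at Slc25a37 (40.0 ± 4.53%; SD, n = 5 each). The 3 control libraries, which carry no deletion and lie in other tables, had 30.4% to 41.3% at Hba. For Hbb they had 32.7% to 45.2% and for Slc25a37 31.5% to 39.8%, also above ES.

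**Figure D5:**
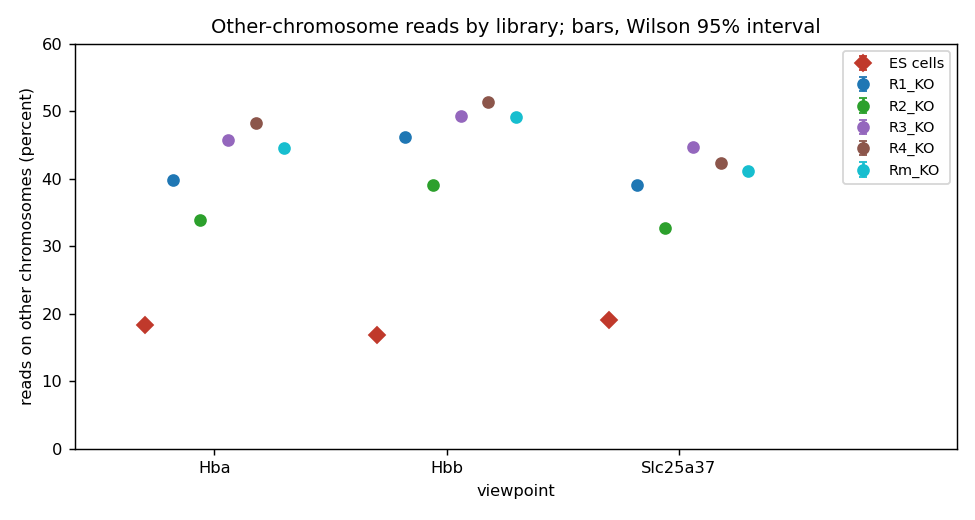
Percent of reads on other chromosomes (vertical axis, linear from 0) by viewpoint and library, with ES cells as red diamonds and erythroid libraries as circles; bars are Wilson 95% intervals for counting error and are smaller than the symbols. ES cells lie between 16.8% and 19.1% and the erythroid libraries between 32.8% and 51.4%.

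Where the remaining reads fell among chromosomes differed much less. As a share of other-chromosome reads, averaged geometrically over the viewpoints, the ES over erythroid ratio was lowest for chromosome X (0.880), chromosome 4 (0.906) and chromosome 7 (0.911), the last from 2 viewpoints. It was highest for the mitochondrial genome (1.95), chromosome Y (1.73) and chromosome 17 (1.18). ES cells were below every erythroid library at all 3 viewpoints for chromosome 4 and at both viewpoints for chromosome 7, but at 2 of 3 for chromosome X, where they were above every erythroid library at Hbb (ratio 1.11). The chromosome 17 value came from Hba (ratio 1.602), since at Hbb (0.997) and Slc25a37 (1.03) ES cells lay within the erythroid range. At Hba, chromosome 17 held 14.7% of other-chromosome reads in ES cells and a mean of 9.18% in erythroid cells. At Hbb it held 4.07% and 4.08%. For chromosome 15, ES cells were above every erythroid library at Hba (1.28) but below every one at Hbb (0.903). The cause was not tested. The mitochondrial and Y values rest on as few as 26 and 40 ES reads at a viewpoint.

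Within chromosomes the placement of these reads was compared in 1 Mb bins. Spearman's rho between ES and each erythroid library was 0.68 to 0.71 at Hba (2271 bins), 0.19 to 0.23 at Hbb (2248 bins) and 0.44 to 0.48 at Slc25a37 (1467 bins). Between pairs of erythroid libraries it was 0.70 to 0.75, 0.63 to 0.71 and 0.59 to 0.67. The ES libraries held 121153, 46670 and 36249 other-chromosome reads at these viewpoints, and the erythroid libraries 120781 to 311740, 90750 to 234209 and 33920 to 83240. Low depth lowers such a correlation, and its part in the Hbb value was not tested.

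Contacts between the 3 loci rested on 9 to 63 ES reads per pair. From Hbb, the 500 kb around Slc25a37 had 19.3 reads per 100000 other-chromosome reads in ES cells (9 reads), against 41.3 to 78.2 in erythroid cells, and those around Hba had 79.3 in ES cells (37 reads), against 97.5 to 129 in erythroid cells. From Slc25a37, Hbb had 38.6 in ES cells (14 reads) and 48.1 to 68.5 in erythroid cells, while the other 3 directed pairs lay within the erythroid range.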

How the data were processed

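The values deposited by the authors are raw read counts for each DpnII fragment of mm9, with no scaling. Trim Galore and Bowtie appear in the submitters' processing notes, without versions. The 3 tables of single deletions hold the 6 libraries described here. The tables of the controls, of which only the 3 controls were used here, each hold 7 columns that match no sample. Members, windows and lists were chosen with earlier results of these data known. Windows are approximate mm9 intervals; RefSeq GRCm38.p6 served for sequences only. Named bins are the 3 with the largest and the 3 with the smallest ratio among called bins at each viewpoint; all windows and the 3 highest and 3 lowest chromosomes are named.

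Fragments were placed by midpoint. Bins that touch a deleted block take the mean of the other 4 erythroid libraries. Wilson 95% intervals cover counting error only, since no molecular identifiers are named. Values were computed with Python 3.11.15, pandas 2.3.3 and scipy 1.17.1. As alternatives, edgeR 4.0.16 (quasi-likelihood) and DESeq2 1.42.0 in R 4.3.3 compared ES with the 5 erythroid libraries as 1 group, assuming that the lone ES library varies like them, with Benjamini-Hochberg adjustment at 0.05. Other alternatives were the zone left out around the gaps, the deleted elements, the scale, the bin size, the read minimum, the fold, the slope range and leaving out each erythroid library.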

Additional observations from a re-analysis of the deposited data

Results flagged for a closer look

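Dixon's criterion was applied to the erythroid libraries in the 82 measures that have 4 or 5 of them and any spread, and 1 library stood apart from the others in 11. Chance meets it in about 1 in 20 groups, and the measures overlap, so these are not 11 separate events. At Slc25a37 the library was R2_KO in 5 of them, all from the same reads. It had 41.0% of chromosome reads at 10 to 50 kb, against 32.6% to 34.8% in the others, and 21.6% beyond 5 Mb, against 28.0% to 29.7%. It had 67.9% within 500 kb, against 57.6% to 60.1%, and 80% of its chromosome reads lay within 6102 kb, against 9977 to 11390 kb. Over the Slc25a37 gene body it had 19938 reads per 100000, against 17634 to 18160. R2_KO had the fewest reads at each viewpoint.

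At Hba, R1_KO had 67.3% of reads within 500 kb on the enhancer side, against 70.1% to 71.0%, and 18.5% on the downstream side, against 14.9% to 15.9%. At Hbb, R1_KO had 7.81% of chromosome reads at 100 to 500 kb, against 5.97% to 6.47%. On the 3′ side of Hbb, 80% of its reads within 500 kb lay within 180 kb, against 101 to 115 kb. R4_KO stood apart by under 1 kb in the distance that held 50% of Hbb reads within 500 kb (33.0 kb, against 32.3 to 32.5 kb). R2_KO did so by 1 bin in the run on the LCR side (95 kb, against 90 kb in the others). In 9 of the 11 values ES cells were outside the range of all erythroid libraries, as they were in most tested bins. In the other 2, the share beyond 5 Mb and the 80% distance at Slc25a37, they lay inside it through R2_KO alone.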

How the results depend on the processing

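Of 561 alternative values over 50 results, 7 turned their direction or went to 0 where the reported value exceeded the erythroid SD. For these the cause was not tested. Smaller values also changed sign in some settings. The log2 ratio of the Hba upstream genes went from 0.064 to −0.016 with 10 kb left out. That of the Hbb 5′ flank went from 0.015 to −0.228 against the 3 control libraries and to −0.018 without R3_KO. Leaving out any 1 erythroid library gave 250 values. None moved by more than the spread between libraries, or for a count of bins by more than 1.5 times. Apart from the counts, this was nearly fixed in advance, since dropping 1 library moves the erythroid mean by less than the erythroid SD. No paired analysis was possible because each group compared had 1 library and the other replicate numbers belong to groups not compared here. All values below are ES minus the erythroid mean, or log2 of ES over it. With 5 kb left out around the gaps, the share at 10 to 50 kb differed by −15.1 percentage points at Hba, the share at 100 to 500 kb by 14.4 at Hba, 16.997 at Hbb and 13.2 at Slc25a37, and the log2 ratio of the distance holding 50% of chromosome reads was 0.23 at Hbb and 1.76 at Slc25a37. With 10 kb left out, the share at 10 to 50 kb differed by −17.2 at Hba and −20.3 at Slc25a37, that at 100 to 500 kb by 15.5, 17.4 and 14.1 (Hba, Hbb, Slc25a37), and that beyond 5 Mb by −9.11 at Hba. That distance then had log2 ratios of 1.10, −0.30 and 0.91, and the upstream region of Slc25a37 one of −1.25. Counted within 500 kb, its log2 ratio was 0.78 at Hba and 0.82 at Slc25a37. With all 5 elements left out of every library, Hba had −9.53 points at 10 to 50 kb, a log2 distance ratio of 1.41 and a slope difference of 0.45. Over 20 to 500 kb the slope differed by 0.65, 1.18 and 0.85.

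Against the 3 control libraries of the other tables, other-chromosome shares differed by −17.3, −21.5 and −15.6 points, shares at 10 to 50 kb by −15.8 at Hba and −19.8 at Slc25a37, shares at 100 to 500 kb by 13.6 and 13.2 there, and shares beyond 5 Mb by −2.90 at Hba and −7.71 at Hbb. The log2 distance ratios were 1.75, 2.79 and 2.61, the slope differences 0.54, 0.83 and 0.58, and the log2 ratios −1.61 at the α-globin enhancer cluster and −1.22 upstream of Slc25a37, with 18 lower bins at Hbb. Scaled to all reads of the genome, these log2 ratios were −0.95 at the enhancer cluster, −1.50 at the LCR and −0.54 upstream of Slc25a37, and turned to 0.12 at the α-globin genes, 0.12 and 0.42 at the adult and embryonic β-globin genes and 0.068 at the Slc25a37 gene body. Lower bins then numbered 3 at Hba and 2 at Slc25a37.

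Bins of 10 kb gave, in the order Hba, Hbb, Slc25a37, 71 higher and 5 lower, 67 and 6, and 80 and 3, and bins of 2 kb gave 345 and 30, 289 and 21, and 13 lower at Slc25a37, as fewer or more bins were tested. At 1.5-fold 21 bins were lower at Hba, and at 3-fold 3 at Hba and 2 at Slc25a37. By edgeR's adjusted p, 25 bins were lower at Hba and 13 at Slc25a37. In that order DESeq2 called 15 higher and 62 lower, 3 and 60, and 1 and 35, under a different rule and other size factors. In settings chosen after seeing the data, runs above 10 times the far level differed by −5 kb downstream of Hba, and those above 3 times by 0 kb on the gene body side of Slc25a37. Depth limits the bins beyond 250 kb, the contacts between loci and the mitochondrial and Y shares.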
